A study of Mus musculus with 10 samples.

Results

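The cytosolic ribosomal protein genes encode the protein subunits of the ribosome that translates messenger RNA in the cytoplasm. Members were the protein-coding genes with an Rpl or Rps symbol of the standard form, together with Rplp0, Rplp1, Rplp2 and Rpsa. Pseudogenes and the Rps6k kinases were left out. This gave 81 genes of the 48471 genes in the data, 50 of the large subunit and 31 of the small subunit. The rule itself uses symbols and no measured value, and the gene group was chosen with earlier results of these data known.

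The sources used here describe the sorted cells as cancer-associated fibroblasts of the myofibroblastic kind. They came from mouse pancreatic ductal adenocarcinomas and were sorted by flow cytometry on the surface protein CD90 (Thy1), and total RNA was sequenced. All 10 libraries came from tumours that grew from KPC T-LOH organoids placed orthotopically in C57BL/6J hosts, and no treatment is named. Both fractions thus came from tumours of the same organoid genotype in hosts of the same strain. Whether the sorted cells carried the organoid genotype or that of the host was not tested. The age of the hosts is not given in the sources used here, nor are the gate markers other than CD90. Each of 5 tumour pools gave 1 CD90- and 1 CD90+ library (n = 5 per fraction). By the sample titles pools 1 to 5 held 4, 1, 2, 3 and 1 animals, which makes 11 animals, while the design text counts 5 male mice. The comparison asks how the CD90- fraction differs from the CD90+ fraction of the same pool.

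Ribosomal protein genes are among the most strongly expressed genes of most cells, and nearly all of their products are present once in each ribosome, the stalk proteins Rplp1 and Rplp2 being exceptions. Their promoters commonly hold sites for ETS-type factors, and their messenger RNAs begin with a C followed by a run of pyrimidines, the 5′ terminal oligopyrimidine (TOP) motif. Through that motif mTORC1 controls their translation, a step that RNA levels do not measure. Demand for ribosomes is known to follow the growth of a cell.

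Promoters of the members are shown here because most members had log2 folds of the same sign. The RefSeq table for GRCm38.p6 held a promoter for 61 of the 81 members and for 4 of the 9 members that were called below. The 100 bases before the annotated start are given 5′ to 3′ on the gene's strand, with the ETS-type motif CGGAAG in capitals.
Rpl37, chr15:5116513-5116612, plus strand: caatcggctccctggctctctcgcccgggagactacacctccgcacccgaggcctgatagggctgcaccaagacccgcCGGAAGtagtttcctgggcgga
Rps25, chr9:44407614-44407713, plus strand: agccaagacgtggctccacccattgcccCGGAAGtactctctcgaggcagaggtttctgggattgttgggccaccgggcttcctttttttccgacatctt
Rpl5, chr5:107900428-107900527, plus strand: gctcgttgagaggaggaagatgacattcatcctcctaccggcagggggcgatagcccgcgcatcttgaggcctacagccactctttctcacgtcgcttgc
Rplp0, chr5:115559367-115559466, plus strand: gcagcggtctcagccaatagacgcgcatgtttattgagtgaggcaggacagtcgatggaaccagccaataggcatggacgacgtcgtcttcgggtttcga

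Over the full window of 250 bases before to 50 bases after the start, CGGAAG was found on either strand in 42 of 61 members (68.9%). The share among all 27025 promoters in the table was 18.8%. Of the 4 promoters printed, Rpl37 held 3 matches in that window, Rps25 held 1, and Rpl5 and Rplp0 held none. A C followed by at least 6 pyrimidines on the sense strand, within 50 bases of the start, was present in 53 of 61 members (86.9%) and in 44.5% of all promoters. The E-box CACGTG, searched on both strands, was in 9.84% of the members and 8.09% of all promoters. TATAAA, searched on both strands, was in 9.84% of the members and 15.7% of all promoters. These matches describe letters in a window and not bound sites.

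As a check of the sort, Thy1 stood at 8.47 ± 5.18 CPM in CD90- and 89.1 ± 29.5 CPM in CD90+ libraries (SD, n = 5; CPM, counts scaled to a library of fixed size after TMM normalization), and it was lower in CD90- in 5 of 5 pools. The libraries held 11.7 to 47.7 M estimated counts (M, mega). Nuclear protein-coding genes received 3.71 to 28.5 M of them, and the members 109878 to 856898. Mitochondrial ribosomal RNA took 59.3% ± 17.6 of gene counts in CD90- and 26.9% ± 12.8 in CD90+ libraries, with the highest value, 84.4%, in CD90- pool 4. That library also had the fewest nuclear protein-coding counts. Fibroblast markers were present in every library but lower in CD90-, where they summed to 4089 to 20561 CPM against 32704 to 54494 CPM. All 12 had negative log2 folds, and 11 of the 12 were called lower. Thy1, on whose protein the cells were sorted, is among these 11, so its fall follows from the gate. The contractile genes Acta2 and Tagln are among them too. Acta2 stood at 37.8 ± 27.7 CPM in CD90- and 183 ± 54.5 CPM in CD90+ libraries, and Tagln at 28.9 ± 27.0 against 183 ± 68.4 CPM (SD, n = 5). Cancer epithelial markers summed to 737 to 3112 CPM in CD90- and 184 to 1659 CPM in CD90+ libraries, and 8 of 12 tested (13 listed) rose in CD90- libraries. Endothelial markers summed to 39.4 to 165 CPM against 26.1 to 37.2 CPM, with 3 of 7 called higher in CD90-. Of the 7, 6 had positive log2 folds, and Kdr was at -0.70 and not called. Cdh5 stood at 62.2 CPM in CD90- pool 2 and at 7.72 to 8.64 CPM in the other CD90- libraries. Macrophage markers summed to 12.2 to 71.9 CPM against 7.55 to 13.8 CPM, with 1 of 7 tested (8 listed) called higher. Lymphocyte markers were near 0, at up to 1.52 CPM in sum, with Cd8a and Nkg7 among those at 0 in all libraries and none called. Of 6 pericyte markers none was called, with 4 negative log2 folds and a median of -1.43. Of 6 mesothelial markers 2 were called higher, Msln and Krt19, which is also on the cancer epithelial list. The other 4, Upk3b, Wt1, Lrrn4 and Upk1b, had log2 folds from -2.04 to -1.32 and were not called, and the median was -1.42. Of 8 acinar and islet markers 2 were tested and 1 was higher. Pericyte markers summed to 12.0 to 159.6 CPM against 48.5 to 81.2 CPM, mesothelial markers to 254 to 509 CPM against 236 to 489.9 CPM, and acinar and islet markers to 2.16 to 26.0 CPM against 1.57 to 3.83 CPM. The part of these markers and of the mitochondrial RNA in the results below was not tested beyond the values given. In bulk samples, fewer cells of a type and less RNA per cell cannot be told apart.

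Members took a larger share of nuclear protein-coding counts in CD90- than in CD90+ libraries. In pools 1 to 5 the 81 genes together made up 3.22, 2.86, 3.34, 3.95 and 3.36% of these counts in CD90- libraries. The matching CD90+ values were 2.17, 2.21, 3.00, 2.10 and 2.40%. The CD90- library was the higher one in 5 of 5 pools, although CD90+ pool 3 lay above CD90- pool 2, so the groups overlapped. The means were 3.34% ± 0.39 and 2.38% ± 0.37 (SD, n = 5), a difference of 0.97 percentage points. No test was applied to this sum.

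The direction of the share depended on what it was a share of. Among all gene counts, which include the mitochondrial RNA, members made up 1.05% ± 0.57 in CD90- and 1.55% ± 0.57 in CD90+ libraries (SD, n = 5) and were lower in CD90- in 5 of 5 pools. On the deposited TPM scale (transcript abundance corrected for length) and over nuclear protein-coding genes, the share was 11.4% ± 1.08 against 9.12% ± 1.09. Pseudogene copies of members, 285 genes, held 3.89 to 5.81% of the counts of members and pseudogenes together, and adding them left the difference at 1.00 percentage points.

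**Figure D1:**
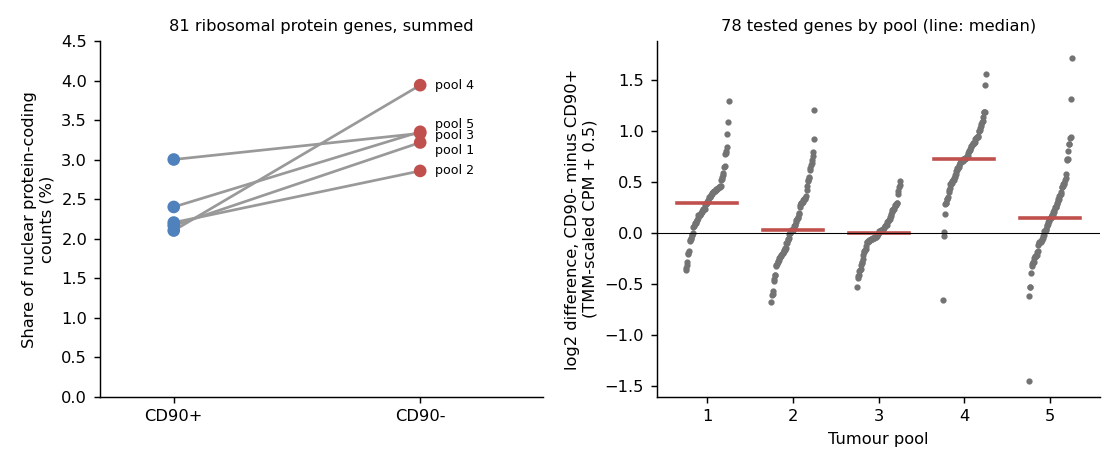
Left, the summed share of the 81 ribosomal protein genes in nuclear protein-coding counts (percent, axis from 0) in each library, with lines joining the fractions of a pool. Right, the log2 difference of each of the 78 tested genes within each pool, with the median as a red line. All 5 lines on the left rise from CD90+ to CD90-, and the medians on the right are near 0 in pools 2 and 3 and reach 0.73 in pool 4.

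The genes were tested one by one with edgeR's quasi-likelihood test over all 15378 genes with enough counts, with the pool as a block, and a gene was called at a Benjamini-Hochberg adjusted p under 0.05. Of the 81 members 78 passed the filter on low counts. The call rate over all genes was 5.83% for higher in CD90-, 7.05% for lower and 12.9% in either direction. Among members 9 of 78 (11.5%) rose in CD90- libraries and 0 fell. At an unadjusted p under 0.05 there were 21 members (26.9%), all of them higher in CD90-. Over all genes 26.9% passed in either direction and 12.9% (1983 genes) with a higher level in CD90-. Limma-voom and DESeq2 also called no member lower. The median log2 fold of the members, CD90- over CD90+, was 0.24, compared with 0.04 over all genes tested, and 67 of 78 members (85.9%) had a positive fold against 52.0% of all genes. None of the called members reached a 2-fold change, although 9.37% of all genes were called with at least 2-fold. Member folds ran from -0.66 to 0.78 with an SD of 0.25, against an SD of 1.21 over all genes.

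The log2 folds of the members were small and mostly positive, with an interquartile range from 0.11 to 0.37. The groups did not overlap for 6 of 78 members (7.69%), close to the 7.93% of all genes. All 5 pools were higher in CD90- for 19 members (24.4%, against 13.5% of all genes), and all 5 were lower for 2 members (2.56%, against 14.5%). In the large subunit 7 of 47 tested members (14.9%) rose, with a median log2 fold of 0.23. In the small subunit 2 of 31 (6.45%) rose, with a median of 0.25, where 5.83% of all genes did.

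**Figure D2:**
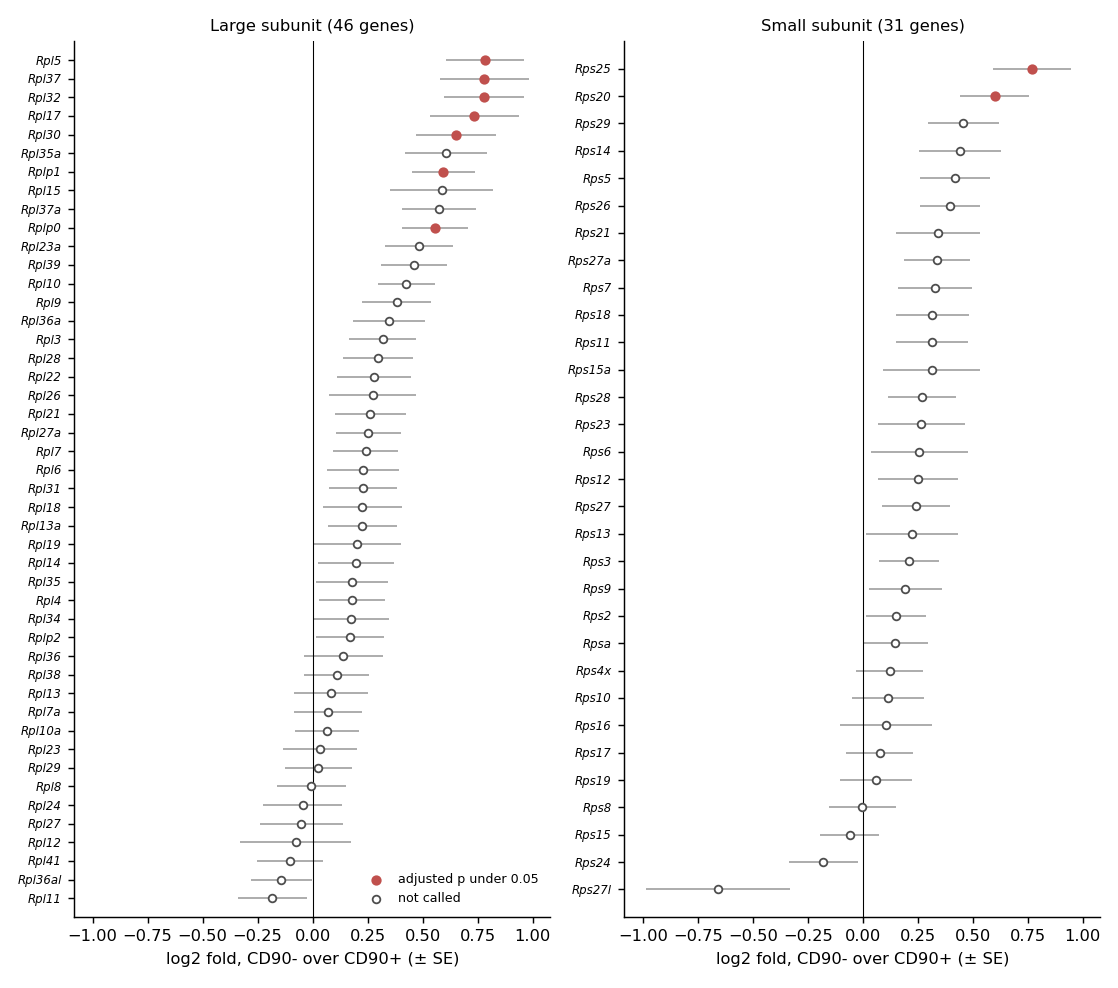
Log2 fold of CD90- over CD90+ for 46 of the 47 large-subunit and the 31 small-subunit genes tested, each with its standard error (SE) as a line. Filled red points mark the 9 genes called at an adjusted p under 0.05. Most points lie between 0 and 0.5, and Rps27l stands alone at -0.66.

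The size of the change differed between pools. The median log2 difference of the 78 members was 0.30, 0.03, 0.003, 0.73 and 0.15 in pools 1 to 5, where the medians over all genes lay between -0.06 and 0.10. Members with a positive difference numbered 64, 43, 39, 76 and 50 of 78. The difference in mitochondrial ribosomal RNA was 32.5, 33.5, 25.1, 51.4 and 19.4 percentage points in pools 1 to 5, also largest in pool 4. The other pools ranked differently by this difference than by the member median. A link between them was not tested. Without pool 4, edgeR called 0 members (3.40% of all genes higher), and the median log2 fold was 0.07. In that fit 11 of 78 members had an unadjusted p under 0.05, as did 3566 of 15664 genes tested. Leaving out pool 2 also left 0 calls (3.72% of all genes higher), with a median of 0.30. There 23 of 78 members and 3462 of 15545 genes tested had an unadjusted p under 0.05. Leaving out pool 1 left 1 call (1.99% of all genes higher), and so did leaving out pool 5 (4.61%). With the mitochondrial ribosomal RNA share as a covariate the member median was -0.45 and that of all genes was 0.15. In that fit edgeR called no gene among members or among all genes. An unadjusted p under 0.05 was found for 2 of 78 members and for 882 of 15378 genes. The mitochondrial ribosomal RNA share was higher in CD90- in 5 of 5 pools, so the fit separates it poorly from the fraction. The SE of Rpl10, for example, was 0.38 with the covariate and 0.13 without.

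Of the 9 called members, those of the large-subunit stalk are at the site where translation factors dock. Rplp0, the stalk base, stood at 785, 829, 749, 896 and 853 CPM in CD90- pools 1 to 5 and at 502, 538, 618, 483 and 675 CPM in CD90+. Every CD90- library lay above every CD90+ library. The log2 fold was 0.55 (SE 0.15, adjusted p = 0.0375). Rplp1, which binds Rplp0 as one of the acidic stalk proteins, stood at 384, 426, 502, 545 and 403 CPM in CD90- and 255, 259.8, 413, 288 and 293 CPM in CD90+. Its groups overlapped through CD90+ pool 3, and its log2 fold was 0.59 (SE 0.14, adjusted p = 0.0237). Rplp2, the partner of Rplp1 in the stalk, was not called, with a log2 fold change of 0.17 (SE 0.15, adjusted p = 0.545). Rplp2 reached 410.1 CPM in CD90- pool 4 and 219 to 305 CPM in the other 9 libraries.

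Rpl5 and Rpl11 form the 5S ribonucleoprotein particle with 5S ribosomal RNA, which also binds Mdm2 when ribosome assembly is disturbed. Rpl5 had the largest member fold. It stood at 144, 218, 202, 237 and 225 CPM in CD90- libraries and at 112, 93.7, 145, 163 and 89.8 CPM in CD90+ libraries. Each pool was higher in CD90-, and the ranges overlapped at CD90- pool 1. The log2 fold was 0.78 (SE 0.18, adjusted p = 0.0191). Rpl11 was not called and had a log2 fold change of -0.18 (SE 0.16, adjusted p = 0.519), with means of 69.7 ± 6.87 and 79.6 ± 12.8 CPM (SD, n = 5). The difference between these 2 folds was not tested.

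Rpl5 counts lay mostly on a transcript that is not annotated as coding. Its retained-intron transcript Rpl5-204, whose annotated exon holds the snoRNA gene Snord21, took 68.0 to 88.0% of Rpl5 counts. In a fit on counts of protein-coding transcripts only, the log2 fold of Rpl5 was 0.41 (edgeR adjusted p = 0.25) and the gene was not called. In that fit 4 members, Rpl32, Rpl37, Rplp1 and Rps25, remained called, against 3.65% of all genes called higher.

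The other called members of the large subunit are core proteins of the 60S particle. Rpl37 stood at 100.4, 83.9, 88.7, 144 and 86.7 CPM in CD90- and 46.8, 60.9, 75.3, 48.5 and 59.5 CPM in CD90+ libraries (log2 fold 0.78, SE 0.20, adjusted p = 0.0324). Rpl32 stood at 140.2, 127, 120.2, 221 and 170.1 CPM against 80.1, 78.3, 109, 80.2 and 97.3 CPM (log2 fold 0.78, SE 0.18, adjusted p = 0.0215). Neither gene showed any overlap between the fractions, and both had their highest value in CD90- pool 4 and their highest CD90+ value in pool 3. Rpl17, which lines the tunnel that the new peptide passes, stood at 171, 152, 144, 221 and 116 CPM against 69.0, 87.6, 109.9, 96.5 and 118 CPM (log2 fold 0.73, SE 0.20, adjusted p = 0.0408). It was the only called member with a pool that went the other way, pool 5. Rpl30 stood at 73.1, 53.6, 62.3, 108 and 64.6 CPM against 37.1, 36.4, 59.0, 47.1 and 47.3 CPM (log2 fold 0.65, SE 0.18, adjusted p = 0.0417). Rpl30 was higher in CD90- in every pool, with overlap through CD90- pool 2.

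In the small subunit 2 of 31 members (6.45%) were called, near the 5.83% of all genes called higher. Rps25, which is known for its role in translation from internal ribosome entry sites, stood at 77.0, 68.9, 63.9, 115 and 87.1 CPM in CD90- and 42.6, 36.2, 62.7, 52.1 and 47.3 CPM in CD90+ libraries. Its fractions did not overlap, though pool 3 differed by only 0.03 on the log2 scale, and its log2 fold was 0.77 (SE 0.18, adjusted p = 0.0203). Rps20, a protein of the head of the 40S subunit, stood at 109, 113, 157, 184 and 115 CPM against 81.3, 78.9, 134, 85.3 and 69.4 CPM. It overlapped through CD90+ pool 3 and had a log2 fold change of 0.60 (SE 0.16, adjusted p = 0.0330).

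**Figure D3:**
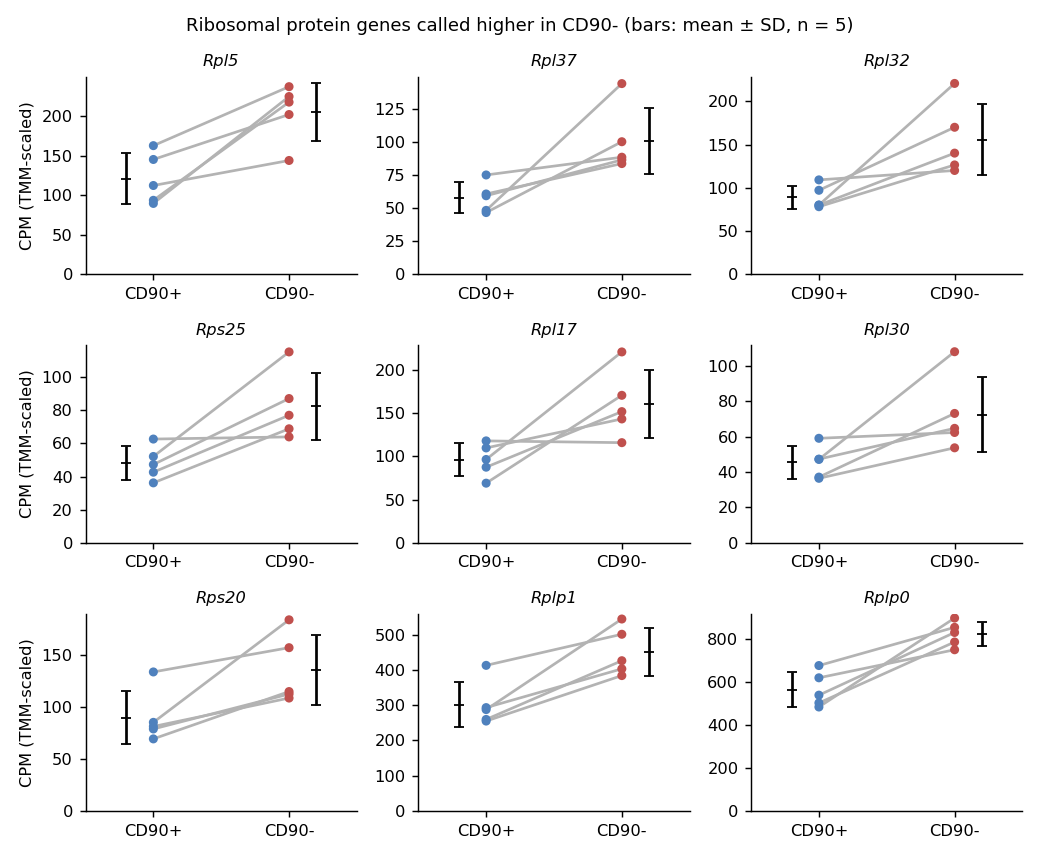
CPM of the 9 called genes in each library (vertical axes from 0, differing between panels), with lines joining the fractions of a pool and bars giving mean ± SD (n = 5). Lines rise in all 5 pools in 8 panels and in 4 of 5 pools for Rpl17.

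Some members came close to the threshold. Rpl37a stood at 44.6 ± 9.43 against 29.7 ± 4.14 CPM (SD, n = 5), for a log2 fold change of 0.57 (adjusted p = 0.0516), and Rpl10 at 152 ± 26.7 against 112 ± 9.96 CPM with a log2 fold change of 0.43 (adjusted p = 0.0616). Neither overlapped between fractions. Rpl35a had a log2 fold change of 0.61 (adjusted p = 0.0627). Among the most strongly expressed members, Rpl23a had a log2 fold change of 0.48 (adjusted p = 0.067), while Rpl13a at 0.23 was not called either.

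Members with known roles of their own were described whatever their fold, and those that follow were not called. Rps6, the target of S6 kinase, had a log2 fold change of 0.26 (SE 0.22), and its CD90+ values ran from 86.3 to 216 CPM. Rps19, Rps10 and Rps26 are mutated in Diamond-Blackfan anaemia, and their log2 folds were 0.06, 0.11 and 0.40. Rps26 was higher in CD90- in 5 of 5 pools (adjusted p = 0.088). Rpl38, which is known for selective translation of Hox messages, had a log2 fold change of 0.11. Rps27a, a fusion of ubiquitin and a small-subunit protein, had a log2 fold change of 0.34 (adjusted p = 0.18). Rpsa, also known as the laminin receptor, had 803 ± 81.1 against 726 ± 93.3 CPM (SD, n = 5) and a log2 fold change of 0.15 (adjusted p = 0.58).

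Several members have a paralog with a symbol ending in l. The testis-enriched Rpl10l and Rpl39l and the muscle-enriched Rpl3l were the 3 members that did not pass the filter. Rpl10l had 7 and 1 estimated counts in CD90- pools 1 and 2, Rpl39l had 6 in CD90- pool 4 and Rpl3l had 2 in CD90+ pool 3, with 0 in the other libraries. Their partners Rpl10, Rpl39 and Rpl3 had log2 folds of 0.43, 0.46 and 0.32, none of them called. Rps27l, a p53 target, was the lowest member fold at -0.66 (SE 0.33, adjusted p = 0.235). It stood at 4.58, 6.10, 6.95, 4.81 and 2.81 CPM in CD90- and 5.96, 8.30, 8.01, 7.89 and 8.55 CPM in CD90+ libraries, lower in CD90- in 5 of 5 pools with overlap. Its partner Rps27 had a log2 fold change of 0.24 and was higher in 5 of 5 pools. Rpl36al, at 40.0 ± 7.45 against 43.8 ± 5.26 CPM (SD, n = 5), was also lower in 5 of 5 pools, with a log2 fold change of -0.14 (adjusted p = 0.58), and its partner Rpl36a had 0.35 (adjusted p = 0.21). The X-linked Rps4x had a log2 fold change of 0.12. Reads of near-identical copies are divided by the quantification model, so the split within such pairs is uncertain.

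Levels can be compared between genes only per length. On the TPM scale over nuclear protein-coding genes, averaged over the 10 libraries, Rpl13a was the highest member at 5195 TPM, and the other high members included Rplp1 at 4917, Rplp2 at 3716, Rpl23a at 3649, Rps24 at 3421 and Rpsa at 3388 TPM. The lowest tested members were Rps27l at 99.1 and Rpl12 at 112 TPM. The 10 highest members held 35.2% of the member TPM. Rplp1 averaged 6064 ± 659 TPM in CD90- and 3770 ± 899.9 TPM in CD90+ libraries (SD, n = 5), which was the highest member level in CD90-, whereas Rpl13a was the highest in CD90+ at 4599 ± 452 TPM. The profile of log2 TPM across the 78 tested members was similar between libraries, with Pearson's r from 0.87 to 0.98 for pairs of libraries, and CD90+ pool 5, the library with the fewest counts, had the lowest mean r, 0.893. These correlations are across genes that share a library and are descriptions. Across the members the log2 fold was unrelated in rank to transcript length (Spearman's rho -0.04) and to level (rho -0.03, n = 78 genes).

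Rps24 was not called in level, and the shares of its transcripts differed between the fractions in the same direction in every pool for 3 of 4 transcripts. The gene had 236 ± 37.7 CPM in CD90- and 266 ± 31.5 CPM in CD90+ libraries (SD, n = 5), for a log2 fold change of -0.18 (SE 0.16, edgeR adjusted p = 0.527). Its transcripts differ in small exons at the 3′ end of the coding region. The transcript sequences at that junction are shown for this reason, from the GENCODE annotation of GRCm38, with 9 bases of the shared exon followed by the next 21 bases and with the small exons of 18 and 20 bases in capitals.
Rps24-202: ggcaaaaagTGAGTGGAGATTGGATACAGc
Rps24-205: ggcaaaaagAAATGAAATACCTAGCAGTGA
Rps24-210: ggcaaaaagccaaaggagtagatctgcggt

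Rps24-202, with the 20-base exon alone, made up 39.5, 43.5, 32.7, 36.1 and 36.8% of Rps24 counts in CD90- pools 1 to 5, and 56.8, 50.03, 39.1, 53.8 and 54.4% in CD90+. It was lower in CD90- in 5 of 5 pools, with a difference of -13.1 percentage points, and the fractions overlapped through CD90+ pool 3. Rps24-210, with neither small exon, made up 27.8, 23.9, 24.2, 27.8 and 26.3% in CD90- against 13.6, 15.3, 22.1, 18.5 and 15.0% in CD90+ libraries. All CD90- values of Rps24-210 lay above all CD90+ values, with means of 26.0% ± 1.89 and 16.9% ± 3.43 (SD, n = 5). Rps24-201, which is annotated only up to the stop codon, made up 27.5% ± 4.77 against 21.9% ± 3.78 and was higher in 5 of 5 pools. Rps24-205, with both small exons, made up 5.55% ± 1.98 against 7.91% ± 2.35 and was higher in 1 of 5 pools.

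The exact paired permutation test (two-sided) gave p = 0.0625 for Rps24-201, Rps24-202 and Rps24-210, the smallest that 5 pools allow. The Benjamini-Hochberg adjusted p was 0.0833 over the 4 transcripts. This adjustment covers Rps24 alone, a gene named with earlier results of these data known. The 4 shares are parts of the same total and so are not independent. Shares of single transcripts of the other members are not given here for comparison. The exact p for Rps24-205 was 0.1875. None passed a threshold of 0.05, which this design cannot reach. Rps24-210 also has a last exon of 1185 bases against 71 in Rps24-202, longer by 1114 bases, so skipping of the small exons and a longer 3′ end cannot be told apart. On the TPM scale, which corrects for length, Rps24-210 made up 6.92% ± 0.68 against 4.26% ± 1.12 and Rps24-202 made up 45.9% ± 5.00 against 57.2% ± 6.84 (SD, n = 5), with the same directions in 5 of 5 pools.

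**Figure D4:**
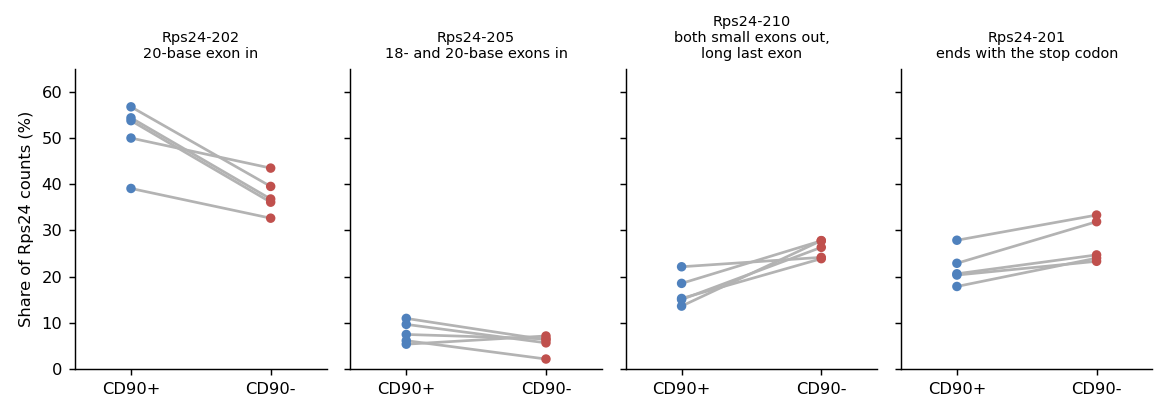
Share of Rps24 counts (percent) on 4 transcripts in each library, with lines joining the fractions of a pool. Rps24-202 falls from CD90+ to CD90- in every pool, and Rps24-210 and Rps24-201 rise in every pool.

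Member counts fell mostly on protein-coding transcripts in all libraries. Protein-coding transcripts held 84.6 to 87.6% of all member counts in a library, transcripts annotated for nonsense-mediated decay 6.79 to 8.99% and retained-intron transcripts 3.73 to 6.56%. In Rpl5 and Rpsa more than 50% of counts lay, in every library, on transcripts that are not protein-coding, and in Rpsa 76.0 to 85.2% lay on Rpsa-206, annotated for nonsense-mediated decay. Among 77 members with at least 50 counts in every library, 3 moved one way in 5 of 5 pools. That is no more than chance gives at a rate of 0.0625 per member. All 3 had a lower non-coding share in CD90-. These were Rpl37 at 5.54% ± 1.75 against 13.0% ± 5.51, Rpsa at 79.8% ± 2.33 against 82.4% ± 2.80, and Rpl19, which reached at most 1.43% in any library. By the exact paired permutation test each had p = 0.0625 and an adjusted p of 1 over the 77 members. In 20 members a retained-intron transcript holds a snoRNA gene within its exons, as with Snord21 in Rpl5, and in Rps3 such a transcript, Rps3-204 with Snord15b, held 42.4% of the counts on average.

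Ribosomal components outside the symbol rule were read from a separate list of 7 genes, 6 of them tested, of which 2 were called, both higher in CD90- libraries. Fau, a fusion of a ubiquitin-like protein and a small-subunit protein, stood at 259.6, 249.6, 146, 392 and 304 CPM in CD90- and 113, 119.9, 107, 129 and 198 CPM in CD90+ libraries. Its log2 fold of 0.98 (SE 0.18, adjusted p = 0.0078) was above that of every member, with overlap through CD90- pool 3. Rack1, Rps3a1, Rpl22l1 and Rpl7l1 were not called, at log2 folds of 0.13, 0.10, 0.08 and -0.34. Rps27rt was at 0 in every library.

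Translation factors and other genes with TOP motifs were read from a list of 19. Of these 4 (21.1%) rose and 0 fell, against 5.83% of all genes higher. A positive log2 fold was found for 18 (94.7%, against 52.0% of all genes), and the median was 0.31 against 0.04. The called genes were the initiation factor 3 subunits Eif3h at 0.87 (adjusted p = 0.0128) and Eif3e at 0.74 (adjusted p = 0.0247), the helicase cofactor Eif4b at 0.59 (adjusted p = 0.0334), and the snoRNA host gene Snhg1 at 1.17 (adjusted p = 0.0153). Of 21 other initiation factor genes 2 (9.52%) rose, Eif2s3x at 0.84 (adjusted p = 0.0110) and Eif5 at 0.65 (adjusted p = 0.0254), and the median was 0.23 with 66.7% positive.

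Genes that build or sense ribosomes were read from 3 further lists. Of 39 ribosome biogenesis genes 2 (5.13%) rose and 1 (2.56%) fell, with a median log2 fold of 0.09. The processing factor Las1l was at 1.29 (adjusted p = 0.0090) and the RNA polymerase I subunit Polr1a at 0.71 (adjusted p = 0.0344), while the assembly factor Rrs1 fell by 0.77 (adjusted p = 0.0323). Nucleophosmin, Npm1, had 0.53 (adjusted p = 0.0584). Of 19 genes of the mTOR pathway and TOP regulation none was called by edgeR, and 4 had an unadjusted p under 0.05. These were the translation repressor Eif4ebp1 at -0.65 (adjusted p = 0.0765), Deptor at 1.02, Ddit4 at -0.56 and Sesn2 at -1.07. Of 11 ribosome rescue genes none was called by edgeR and 3 had an unadjusted p under 0.05, Usp10 at 0.54, Ascc3 at 0.45 and Nemf at 0.32.

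The difference was read against other large complexes measured in the same fit. Among 78 mitochondrial ribosomal protein genes tested edgeR called 0, 6 had an unadjusted p under 0.05, and the median log2 fold was 0.13 with 56.4% positive. Of 40 proteasome genes 36 were tested, 0 rose and 1 fell, with a median of -0.05 and 44.4% positive. Whether the cytosolic ribosomal protein genes differ from these sets was not tested.

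Calls depended on the settings. Without the block for the pool 5 members were called higher, where 2.74% of all genes were. Relative log expression size factors gave 10 members (5.95% of all genes higher), upper-quartile normalization 11 (6.33%) and leaving out mitochondrial genes 9 (6.06%). Keeping only nuclear protein-coding genes gave 14 members (7.76% of all genes higher). DESeq2 called 15, where it called 10.6% of all genes higher, and limma-voom called 12, with 7.45% of all genes higher. Each of the 9 called members kept a positive fold in every setting except the covariate for mitochondrial ribosomal RNA, under which 4 of 9 did.

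**Figure D5:**
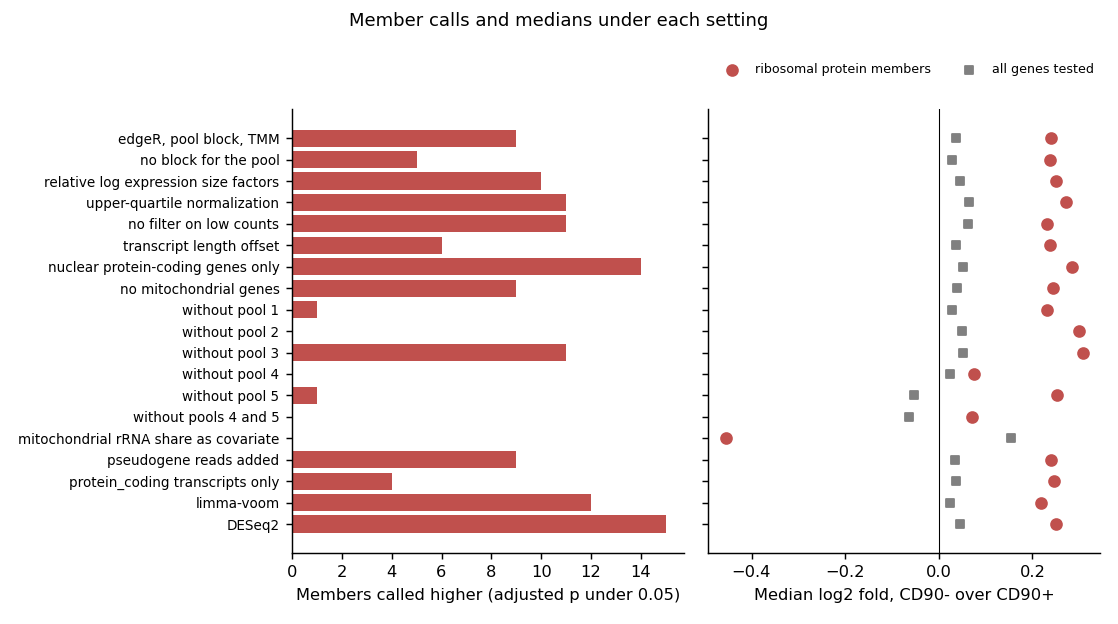
Left, the number of members called higher at an adjusted p under 0.05 under each setting (bars, axis from 0). Right, the median log2 fold of members (red) and of all genes tested (grey). Calls range from 0 to 15, and the member median lies above that of all genes everywhere except with the mitochondrial ribosomal RNA covariate, where it is -0.45.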

How the data were processed

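The authors deposited an estimated count (NumReads) and a TPM per transcript for each of 10 libraries, and the submitters' processing notes name Salmon 1.9.0 and the builds GRCm39 and mm39. The sources used here do not give its annotation, strand setting or bias correction. Per the labels' protocols, RNA was of low input and uneven integrity and libraries were made with a stranded kit and PCR, so counting error understates the true error.

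Transcripts were matched without version to GENCODE M21 (GRCm38), used for names, biotypes, chromosomes and transcript sequences. Of 144584 transcripts 133666 (92.4%) matched, and the 10918 others held 3.63 to 12.1% of counts. Estimated counts were summed per gene and rounded.

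The main test was the quasi-likelihood test of edgeR 4.0.16, run in R 4.3.3 (filterByExpr, TMM, robust glmQLFit, glmQLFTest) with the pool as block. The block rests on the animals shared in the titles. Deviations from group means correlated within pools by 0.06, 0.00, 0.42, 0.03 and 0.19. SEs follow from the F statistic. Replicates are pools of animals, and p-values measure the spread between them. Pool differences used log2(CPM + 0.5). Transcript shares were compared by sign flips over 5 pools, whose smallest p is 0.0625. Alternatives were DESeq2 1.42.0, limma-voom 3.58.1, other scalings and filters, a length offset, and pools left out. On simulated counts for this comparison (15378 genes, 100 changed 2-fold and 100 changed 4-fold) the fit recovered 16% of the former and 45% of the latter, with 3 false calls of 64. The changed genes were drawn at random from all tested genes and were far fewer than the 1980 called here. These rates therefore need not hold for the members.

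The members and gene lists were chosen with earlier results of these data known. Members named were those called, the 6 with the highest TPM, the 3 highest and 3 lowest folds, paralogs ending in l with their partners, and members with known roles, in all 32. A few genes are not reported here. Rpl37a, Rpl35a, Rpl12, Rpl19 and Rps3 were named after their values were seen. From the other lists, called components outside the rule and up to 4 genes with the smallest p were named, and the remaining genes of the 7-gene list after their values were seen.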

Additional observations from a re-analysis of the deposited data

Results flagged for a closer look

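Of 74 groups of 5 libraries checked, 12 had 1 library apart from the other 4 by Dixon's ratio (critical value 0.71), where chance gives about 1 in 20. CD90- pool 4 was high for Rpl37 (144 CPM, others 83.9 to 100.4), Rplp2 (410.1, others 249.99 to 287), Rps19 (153, others 101 to 109) and Rpl39l (0.641, others 0). CD90+ pool 3 was high for Rplp1 (413 CPM, others 255 to 293), Rps20 (134, others 69.4 to 85.3), Rps26 (183, others 109 to 109.8) and Rpl3l (0.0302, others 0). Rpl39 was high in CD90- pool 3 (59.4 CPM, others 32.5 to 37.7) and Rpl10l in CD90- pool 1 (0.241, others up to 0.0335). Rps6 was low in CD90- pool 2 (101 CPM, others 151 to 166), and Rps27l was low in CD90+ pool 1 (5.96 CPM, others 7.89 to 8.55). For Rpl3l, Rpl10l and Rpl39l these values rest on 7 counts or fewer.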

How the results depend on the processing

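Without each pool in turn 0 to 11 members were called (1, 0, 11, 0 and 1 without pools 1 to 5), against 9 with all pools, and 675 to 2019 genes in all, against 1980. Of all genes 1.99, 3.72, 5.50, 3.40 and 4.61% were called higher without pools 1 to 5. Members whose non-coding transcript share moved one way numbered 3 over 5 pools and 4 to 9 over 4, where fewer pools must agree. With no replicate block 5 members and 965 genes were called, so the pairing moved both counts by over 1.5 times. Protein_coding transcripts only gave 4 and 1233, and DESeq2 15 and 3432. The length offset gave 6 members (4.32% of all genes higher) and nuclear protein-coding genes only 14 (7.76%). Leaving out pools 4 and 5 gave 0 and 541, and the mitochondrial rRNA covariate 0 and 0. The difference in member share was 0.97 points, -0.50 over all gene counts and 2.30 on the TPM scale. Adding pseudogene reads changed no call of a named member. The difference in the Rps24-210 share was 9.08 points on counts and 2.67 on TPM, an alternative chosen after seeing the data.

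Under the covariate the log2 folds of 17 of 29 named members turned negative: Rpl10 -0.0091, Rpl13a -0.61, Rpl17 -0.45, Rpl23a -0.25, Rpl3 -0.47, Rpl30 -0.29, Rpl32 -0.17, Rpl36a -0.45, Rpl37 -0.43, Rpl38 -0.41, Rplp0 -0.075, Rplp2 -0.41, Rps10 -0.63, Rps19 -0.86, Rps26 -0.025, Rps6 -0.15 and Rpsa -0.32. Without pool 4, Rpl38 was -0.040, Rps10 -0.065 and Rps19 -0.13, their lowest values with a pool left out, and without pool 2 they were 0.18, 0.21 and 0.13, their highest. Without pools 4 and 5, Rpl38 was -0.075, Rplp2 -0.071, Rps10 -0.089, Rps19 -0.099, Rps4x -0.071 and Rps6 -0.21. The cause was not tested. Under the covariate, which is poorly separated from the fraction, SEs were larger, as for Rpl10 (0.38 against 0.13) and Rpl11 (0.46 against 0.16). The signs in that fit are therefore uncertain. The 9 called members kept their direction under every other setting, and depth, with 3.71 M nuclear protein-coding counts in CD90- pool 4, limits the low members.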
